A study of Mus musculus with 8 samples.

Results

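Odorant receptors form the largest gene family of the mouse, and probes for 885 of their gene symbols lay on the 2 promoter arrays on which Flag-tagged HoxB4 was mapped. The members were chosen by gene symbol: every probe whose annotation in the array files names a symbol beginning with Olfr was taken, and control spots and outlier-marked spots were left out. This gave 19918 probed regions of 474323, of which 10124 lay on array 1 (438 genes) and 9794 on array 2 (447 genes). A gene had a median of 24 probes and at most 56. RefSeq tables gave a match for 858 symbols through an accession, for 12 through the symbol itself and for 8 through an older name, and 7 found none. RefSeq lists 865 of them as protein-coding genes, 12 as pseudogenes (7 of these transcribed) and 1 as another RNA. The group was proposed with its low ratios already known, so its level is given below as a description and no test was made on it.

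The cells were mouse hematopoietic progenitors derived from the embryonic stem cell line B6N-22UTR. Cells carrying c-Kit and CD41 were isolated from embryoid bodies at day 6, put on OP9 bone marrow stromal cells and infected with a retrovirus that overexpresses 3xFLAG-HoxB4, and c-Kit+ cells were collected at day 12. On each array, DNA precipitated through the Flag tag (Cy5) was set against input DNA (Cy3), after both had been amplified with T7 RNA polymerase. Array 1 carries chromosomes 1 to 8 and part of 9, and array 2 carries the rest of 9 and chromosomes 10 to 19 and X, so every region has 1 sample and no replicate. No array of untagged cells was used here. The values therefore describe single arrays of cells in which a virus drives tagged HoxB4, and no p-value is given. Each value is log2 of Flag-IP over input, centred on the array's median. A value of 0 is thus the typical probe of the array and a value of -1 is 2-fold below it. A low value is a measure relative to the array, not an amount of HoxB4.

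Odorant receptors are G protein-coupled receptors of olfactory sensory neurons, where each mature neuron expresses a single receptor gene from 1 allele. Their genes sit in large clusters on many chromosomes and have a coding region without introns. In olfactory sensory neurons the receptor genes that are not expressed are held in heterochromatin. The chromatin state of these genes in the blood progenitors was not measured here. Class I receptors resemble those of fish and lie together on chromosome 7, and class II receptors are the remainder. HoxB4 is a homeodomain transcription factor that promotes the expansion of blood progenitors. Homeodomains bind AT-rich sites such as TAATTA, and Hox proteins together with Pbx partners bind sites such as TGATTNAT.

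Promoter sequences from RefSeq (GRCm38.p6), each from 250 bases before to 50 bases after the annotated gene start, are shown for 4 receptors from the ends of the range, so that the letters at gene starts of high and low ratio can be read beside the values. Olfr1410 (chr1:92607589-92607888, plus strand) and Olfr523 (chr7:140175854-140176153, plus strand) were among the 8 receptor genes with the highest median ratio. Olfr345 (chr2:36639791-36640090, plus strand) and Olfr1062 (chr2:86423625-86423924, minus strand) were among the 8 with the lowest. All 4 genes have RefSeq lengths under 1000 bases. The 4 were picked from those lists after their values were seen. Capitals mark TAATTA and TGATTNAT on either strand.
Olfr1410: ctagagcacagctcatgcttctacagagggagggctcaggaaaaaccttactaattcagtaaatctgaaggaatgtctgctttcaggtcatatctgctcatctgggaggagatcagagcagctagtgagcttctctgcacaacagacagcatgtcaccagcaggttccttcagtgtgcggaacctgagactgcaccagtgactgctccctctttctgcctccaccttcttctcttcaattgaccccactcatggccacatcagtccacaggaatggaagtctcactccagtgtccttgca
Olfr523: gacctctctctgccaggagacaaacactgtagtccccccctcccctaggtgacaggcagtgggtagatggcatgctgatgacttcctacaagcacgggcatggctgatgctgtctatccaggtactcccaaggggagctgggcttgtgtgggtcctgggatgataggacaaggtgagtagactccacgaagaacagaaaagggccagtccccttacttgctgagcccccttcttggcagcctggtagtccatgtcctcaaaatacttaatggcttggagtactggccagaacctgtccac
Olfr345: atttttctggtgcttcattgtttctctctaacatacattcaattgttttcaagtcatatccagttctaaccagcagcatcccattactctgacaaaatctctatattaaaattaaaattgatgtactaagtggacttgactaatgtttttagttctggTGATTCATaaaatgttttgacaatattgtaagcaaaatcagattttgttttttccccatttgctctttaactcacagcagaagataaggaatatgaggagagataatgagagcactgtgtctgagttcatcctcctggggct
Olfr1062: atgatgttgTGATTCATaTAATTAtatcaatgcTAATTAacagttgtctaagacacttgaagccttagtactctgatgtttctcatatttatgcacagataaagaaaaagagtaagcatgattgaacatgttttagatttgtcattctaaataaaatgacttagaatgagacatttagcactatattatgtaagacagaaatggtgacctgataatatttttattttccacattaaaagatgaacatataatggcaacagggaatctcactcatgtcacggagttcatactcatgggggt
The upper 2 windows have 50.3% and 55.3% G+C and hold neither motif. The lower 2 have 34.0% and 31.0% G+C. Olfr345 holds 1 TGATTNAT match, and Olfr1062 holds 1 TGATTNAT and 2 TAATTA matches. The median ratio of the probes between -250 and 50 bp was 0.77 in Olfr1410 and 1.23 in Olfr523 (2 probes each), against -2.97 in Olfr345 (2 probes, 1 of them not well above background) and -2.06 in Olfr1062 (1 probe). By gene median, which ranked these lists, the other genes do not all follow this contrast in composition and motifs. Among the highest, Olfr1509 has 34.3% G+C, Olfr1396 has 38.3%, and Olfr530 has 38.3% and 1 TAATTA match. Among the lowest, Olfr1164 has 39.3% G+C, and Olfr1164, Olfr782 and Olfr746 hold neither motif. Between -250 and 50 bp the median was 0.39 in Olfr1509 and -0.43 in Olfr530 (2 probes each). It was -0.24 in Olfr1396 and -0.96 in Olfr782 (1 probe each), and Olfr1164 and Olfr746 had no probe there. A match is a description of the letters, not a binding site.

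Regions of olfactory receptor genes had low ratios of Flag-IP over input relative to the array median. Their median log2 ratio was -0.93 on array 1 (quartiles -1.57 and -0.30) and -0.97 on array 2 (quartiles -1.56 and -0.39), whereas all other probes had a median of 0.03 on both. Of the receptor regions, 85.7% lay below 0. The 2 arrays cover different chromosomes, so the like values come from different genes. A ratio at or below -1 was found for 9502 receptor regions (47.7%), beside 15.4% of all probes. A ratio at or above 1 was found for 204 (1.02%), beside 8.81% of all probes, and 8 reached 2. With normexp background correction in place of the processed signals, 7.13% lay at or below -1 and 1.85% at or above 1, beside 1.74% and 12.1% of all probes. Values past either limit were higher ones in 2.10% of cases with the processed signals and in 20.6% with normexp (36.4% and 87.4% over all probes). After the trend of the ratio with brightness was subtracted, the receptor medians were -0.49 and -0.50. In that setting 4260 of the 19918 receptor regions (21.4%) lay at or below -1, beside 33213 of all 474323 probes.

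The receptor regions were dim in the precipitated channel. The median Flag-IP intensity was 339 on array 1 and 284 on array 2, against 825 and 772 for all other probes. The input intensities lay closer together, at 626 and 540 for receptor regions against 782 and 728. Both channels were well above background in 86.2% and 88.4% of receptor regions and in 95.7% and 95.6% of other probes. Where only such probes were used, the receptor medians were -0.81 and -0.90. A ratio below these limits of detection is only known to be low, and its size is not. The error that the scanner software gives for a log2 ratio had a median of 0.27 in receptor regions and 0.23 in other probes. It covers the spot and not the preparation.

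**Figure D1:**
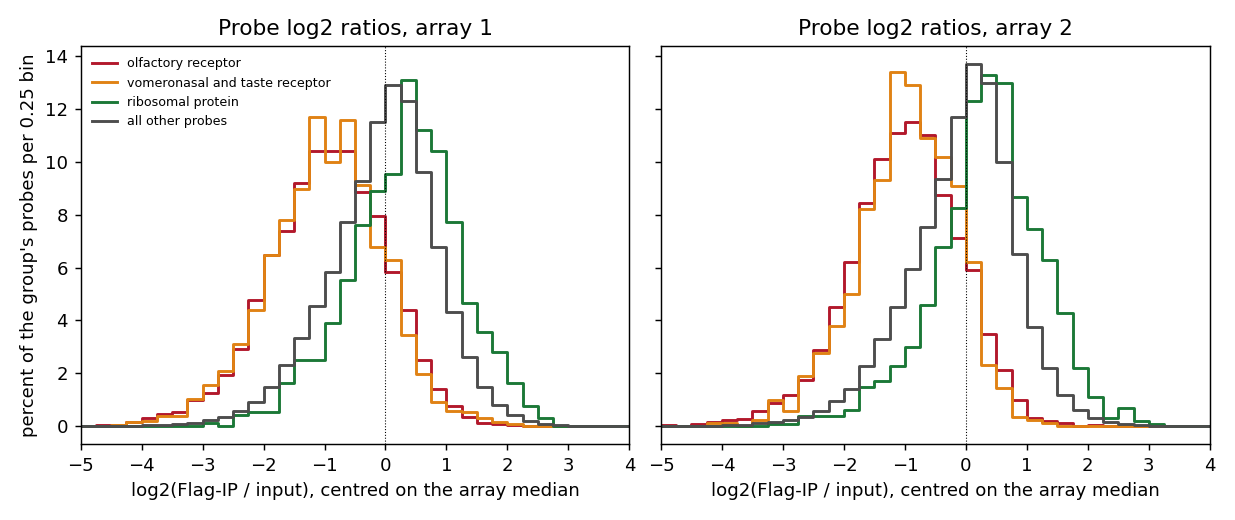
Percent of each group's probes (vertical axis) per 0.25 step of the centred log2 ratio of Flag-IP over input (horizontal axis), for array 1 (left) and array 2 (right). Olfactory receptor regions (medians -0.93 and -0.97) and vomeronasal and taste receptor regions lie to the left of all other probes (0.03), and ribosomal protein genes lie to the right (0.36 and 0.41).

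Other chemosensory receptor genes had like values. Vomeronasal and taste receptor genes, which serve pheromone detection and taste, had a median of -0.94 over 2970 regions of 154 symbols. Keratin genes, which encode filament proteins of epithelia and hair and also stand in clusters, had a median of -0.22 over 1845 regions. Ribosomal protein genes, active in every cell, had a median of 0.37 over 1925 regions. No test of these differences was made, since each region has 1 sample.

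At the level of genes, 845 receptors had at least 5 probes, and their gene medians had a median of -0.99, from -2.37 to 0.56. A gene median at or below -1 was found for 416 of the 845 (49.2%), beside 5.25% of all such genes on the arrays. A gene median above 0 was found for 32 (3.79%), beside 52.0% of all genes. The highest median over 3 neighbouring probes, a measure of the strongest local signal, could be formed for 847 receptors. It reached 1 in 32 genes (3.78%), beside 41.7% of all genes, and it reached 2 in 0 genes, beside 2.89%. With normexp it reached 1 in 55 genes and 2 in 3 genes, and with 5 probes in place of 3 it reached 1 in 14 of 807 genes. The shares over all genes were computed only with the processed signals and 3 probes. Over all probes, 12.1% lay at or above 1 with normexp, against 8.81% with the processed signals. The lowest such window lay at or below -1 in 780 genes (92.1%), beside 54.0% of all genes, and at or below -2 in 407 (48.1%), beside 11.5%. All 3 probes were well above background in the lowest window of only 298 of the 847 genes, and in the highest window of 730.

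The highest gene medians belonged to Olfr524 (0.56), Olfr1410 (0.50), Olfr49 (0.46), Olfr523 (0.41), Olfr530 (0.40), Olfr1396 (0.38), Olfr1509 (0.38) and Olfr543 (0.34). The order of these values depended on the processing. With normexp all stayed positive, and Olfr543 (0.53) was the highest of them and Olfr1410 (0.11) the lowest. Olfr523 had 0.14, Olfr49 0.18 and Olfr530 0.24, and the others lay between 0.33 and 0.40. With the brightness trend subtracted they ran from 0.07 in Olfr1509 and 0.09 in Olfr49 to 0.46 in Olfr530. With only probes well above background in both channels they ran from 0.31 to 0.53. Olfr523, Olfr524 and Olfr530 lie in the same cluster on chromosome 7, and Olfr543, a class I receptor, lies in the class I cluster of that chromosome. In Olfr524 (chr7:140051708-140059584 in the array's coordinates, whose genome build the sources used here do not give), 43 probes ran from -1.26 to 2.01, and 7 of them lay above 1. In Olfr523 the ratio was 1.26 at -953 bp, 1.04 at -300 bp and 1.55 at -73 bp, and between 0.27 and 0.92 at its 4 probes inside the gene. The median was 1.23 from -250 to 50 bp and 0.56 inside, so this receptor was higher at its start than within the gene.

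Olfr1509 had the highest window of any receptor with the processed signals, at 1.72. With normexp the highest window of Olfr420 (2.54) lay above that of Olfr1509 (2.14). Olfr1509 encodes MOR244-3, a receptor for the sulfur compound (methylthio)methanethiol of male mouse urine. Its 6 probes inside the gene read 0.73 at 94 bp, 1.56 at 311 bp, 1.72 at 481 bp, 2.09 at 648 bp, 1.66 at 807 bp and 1.04 at 909 bp. Its probes from -4214 to -1077 bp all lay between -4.06 (a probe not well above background) and -0.82, and those from -5443 to -4467 bp between 0.27 and 1.18. The probes at -193 and -54 bp read 0.39 and 0.40, so the low stretch ended before the gene start. The median over all 29 probes was 0.38. The promoter window of Olfr1509 has 34.3% G+C and holds none of the motifs searched.

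The other highest windows were in Olfr420 (1.57), Olfr1390 (1.55), Olfr648 (1.53) and Olfr530 (1.5). Those of Olfr420 and Olfr648 lay inside the gene, centred on the probes at 614 and 654 bp, and those of Olfr1390 and Olfr530 lay upstream, at -2484 and -2147 bp. Olfr648 is a class I receptor whose 5 probes inside the gene ran from 1.26 to 2.09, while its probe at 1243 bp read -0.41. Of the 32 receptors with a window at or above 1, 16 had it between 0 and 1000 bp, 14 upstream and 2 farther downstream. Over all 847 receptors the highest window lay between 0 and 1000 bp in 250, upstream in 516 and farther downstream in 81. In 30 of the 32, all 3 probes were well above background. Olfr530 was not among these 30. Its highest window was 1.47 with only probes well above background in both channels, and 1.00 with normexp.

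The lowest gene medians were those of Olfr1164 (-2.37), Olfr782 (-2.22), Olfr1022 (-2.17), Olfr746 (-2.08), Olfr1203 (-2.08, named Olfr1205 in RefSeq), Olfr345 (-2.07), Olfr1097 (-2.05) and Olfr1062 (-2.04). Of these 8 genes, 6 lie on chromosome 2. The size and order of these values rest in part on dim probes. With only probes well above background in both channels, the medians were -1.0 for Olfr1164, -1.08 for Olfr782, -1.60 for Olfr1022 and -1.01 for Olfr746, and between -2.06 and -1.69 for the other genes. With normexp all 8 lay between -1.0 and -0.82. Olfr1164 and Olfr782 had 5 probes each, of which 3 were not well above background in both channels, and in Olfr345 9 of 22 were not. All 5 probes of Olfr1164 lay far upstream, from -6993 to -6467 bp, so its value does not describe the gene or its start. In Olfr1062 7 of 8 probes were well above background, and the 8 ran from -3.71 to -1.48. All 8 lay upstream, from -4016 to -243 bp, and none inside the gene. Olfr345 read -2.17 at -37 bp and -0.92 at 325 bp inside the gene, both at probes well above background. The lowest 3-probe windows were in Olfr393 (-4.26), Olfr820 (-4.13), Olfr980 (-3.97), Olfr183 (-3.93) and Olfr733 (-3.83). Each of these 5 windows holds at least 1 probe that was not well above background. Without such probes the lowest windows of these genes lay between -2.82 and -1.70.

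The ratio of receptor genes depended on the place within the gene. From -4000 to -250 bp the medians per distance bin lay between -1.10 and -0.99, and the last 250 bp before the gene start had -0.84. Inside the gene the median was -0.22 from 0 to 250 bp, -0.11 from 250 to 500 bp, -0.30 from 500 to 750 bp and -0.52 from 750 to 1000 bp. From 1000 to 1500 bp it was -1.18 again. The array's annotation called probes inside the gene up to a median of 802 bp and downstream from 1054 bp, and the median RefSeq length of these genes is 948 bases. The band of higher values thus spanned about the length of the gene. RefSeq lengths up to 1000 bases were multiples of 3 in 591 of 620 receptors, so these gene models hold the coding length alone and their start is the start codon, not a measured start of transcription. All other probes were highest from 0 to 250 bp, with a median of 0.41. Within 500 bp of the gene start the receptors had a median of -0.60 on array 1 and -0.68 on array 2, against 0.35 and 0.34 for all other probes.

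**Figure D2:**
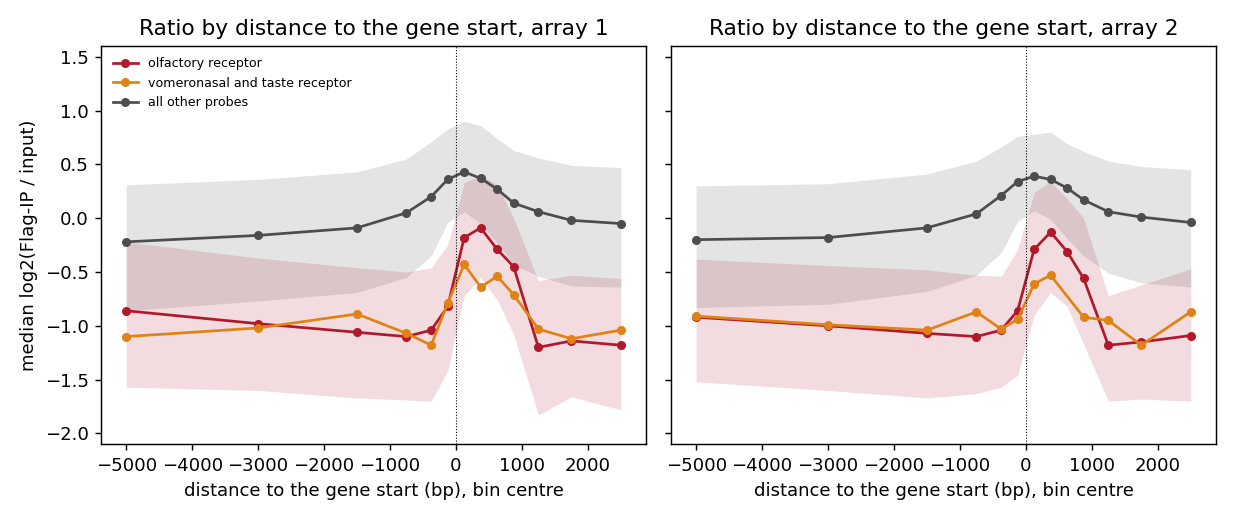
Median log2 ratio of Flag-IP over input (vertical axis) by distance to the gene start in bp (horizontal axis, bin centres) for olfactory receptors, vomeronasal and taste receptors and all other probes on both arrays. Shaded bands are the quartiles over probes for the first and last group. Receptor medians are near -1 on both sides and reach -0.09 and -0.13 inside the gene.

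The same contrast was seen gene by gene. In 364 receptors with at least 3 probes both inside the gene (0 to 1000 bp) and upstream (-4000 to -500 bp), the inside was higher in 319 (87.6%) and lower in 45. The inside median exceeded the upstream median by 0.88 on array 1 and by 0.74 on array 2, and by 0.78 over both (quartiles 0.32 and 1.22). The inside was higher in 38 of 58 vomeronasal and taste receptor genes (median difference 0.33) and in 73.5% of 12231 other genes (median difference 0.39). Once the trend with the mean signal of both channels was subtracted, the receptors' difference was 0.20. That signal includes Flag-IP, so this is not an adjustment for input brightness alone. Both probe length and input brightness moved with the place. Inside the receptors 46.4% of the probes had the full length of 60 bases, against 83.0% upstream, and the median input intensity from 250 to 500 bp was 1007, against 561 from -4000 to -2000 bp. Among 60-base probes the median was -0.66 inside and -1.17 upstream, and among shorter probes it was 0.05 inside and -0.24 upstream. The part of probe length and brightness in this contrast was not tested. The RefSeq windows also differ in composition. In 517 receptor genes with lengths up to 1000 bases, median G+C was 33.2% in the 250 bases before the start and 44% in the 50 bases after it. In all 32851 RefSeq promoters the medians were 52.4% and 56.0%.

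Receptor regions were lower than other probes at every level of input brightness. When all probes of an array were split into 10 equal groups by input intensity, the receptor median minus that of the other probes ran from -1.05 in the dimmest group to -0.34 in the brightest on array 1. On array 2 it ran from -0.98 in the dimmest group to -0.28 in the brightest. The median over the groups was -0.86 and -0.84, and -0.48 over both arrays with normexp. The brightest group held 3.22% and 2.83% of the receptor regions, with medians of -0.03 and 0.01. Receptor regions of bright probes were thus near the array median, and those of dim probes far below it.

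**Figure D3:**
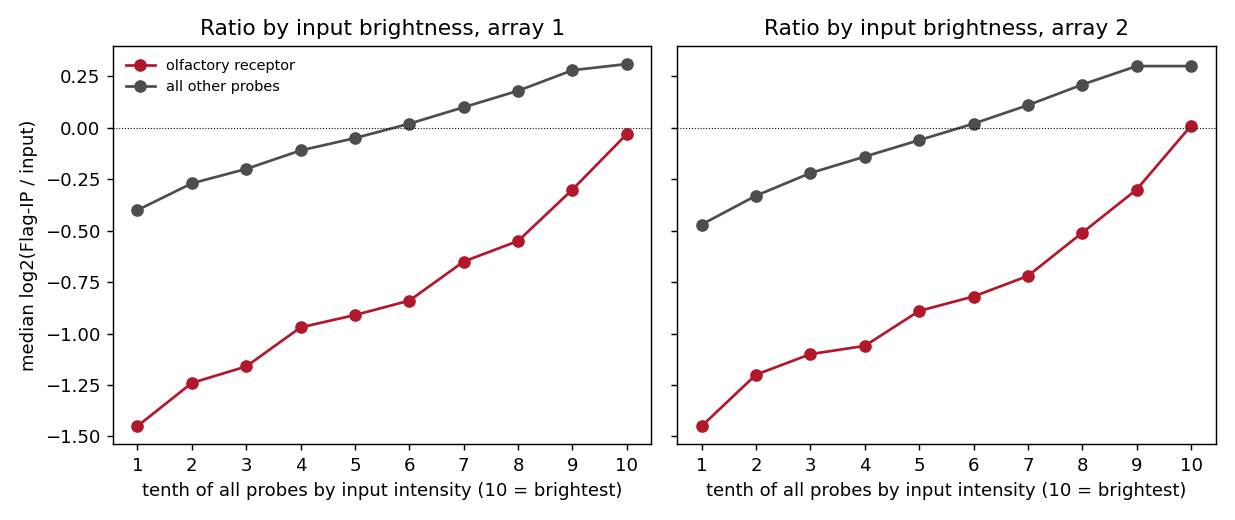
Median log2 ratio of Flag-IP over input (vertical axis) in 10 equal groups of all probes ranked by input intensity (horizontal axis, 10 is brightest), for array 1 (left) and array 2 (right). Olfactory receptor regions are below all other probes in all 20 groups, by 1.05 to 0.28.

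The ratio of receptor regions also differed by probe length. Probes of these arrays are 44 to 60 bases long. Of the receptor regions 79.9% were 60-base probes, against 39.7% of the others. Their median was -1.13 for 60-base probes, -0.42 for 55 to 59 bases, -0.04 for 50 to 54, 0.17 for 46 to 49 and 0.28 for 44 to 45 bases. The other probes had medians of -0.51, 0.00, 0.24, 0.38 and 0.40 in the same classes. The gap between receptor regions and other probes was thus widest in the longest probes and narrow in the shortest. Across the 845 genes the gene median had a Pearson r of -0.68 (Spearman's rho -0.66) with the share of 60-base probes, as a description over genes that share 2 arrays. The part of probe length in the low ratios was not tested.

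Base composition at the gene start moved with the ratio in the same way. Of the 885 receptors, 743 had 1 promoter window in the RefSeq table, with a median G+C of 35.3% against 52.7% over all such windows. Most short receptor gene models start at the start codon, as given above. Their windows show the sequence around that codon, so they need not hold the promoter. The median ratio of the probes from -250 to 50 bp had an r of 0.55 (rho 0.53) with G+C over 579 receptors. For receptors with 20 to 30% G+C the median was -1.42 (69 genes), and other genes of that composition had -1.45 (18 genes). At 30 to 35% the values were -1.10 (200 receptors) and -1.01 (75 other genes). At 35 to 40% they were -0.71 (162) and -0.52 (239), and at 40 to 45% they were -0.27 (93) and -0.09 (513). At 45 to 50% they were -0.19 (36) and 0.24 (882), and at 50 to 60% they were 0.48 (18) and 0.52 (3210). At 60 to 85% no receptor had a value, and the 4227 other genes had a median of 0.39. The receptors were lower in 5 of the 6 bins that hold both groups, by 0.04 to 0.43, and higher by 0.03 in the bin of 20 to 30%. These differences were not tested. The probes' own sequences were not used here, so this comparison holds for the gene start only.

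**Figure D4:**
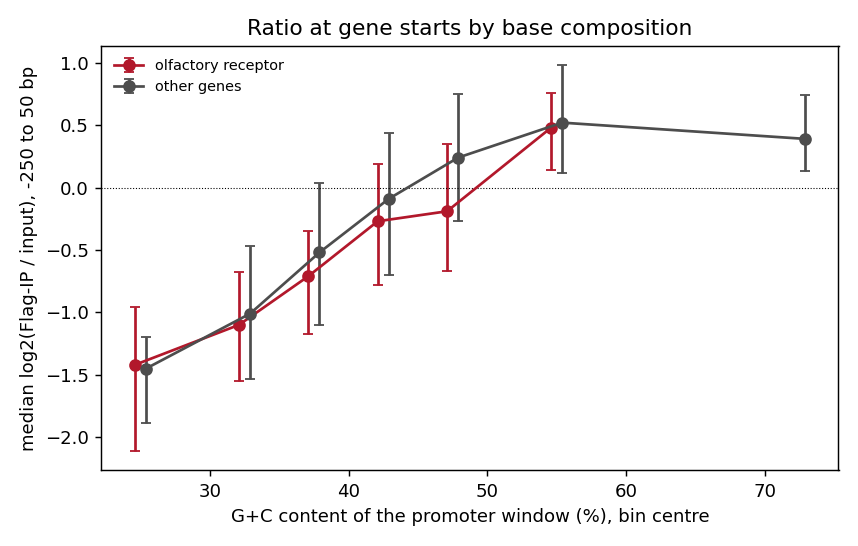
Median log2 ratio of the probes from -250 to 50 bp (vertical axis) by G+C content of the RefSeq promoter window in percent (horizontal axis, bin centres), for olfactory receptors and other genes. Bars are quartiles over genes. Both groups run from about -1.4 at 20 to 30% G+C to about 0.5 at 50 to 60%. At 60 to 85% the other genes have a median of 0.39, and there is no receptor.

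Motifs of homeodomain proteins were more frequent in the receptor windows without a higher ratio there. TAATTA reads the same on both strands. It was present in 133 of 743 receptor windows (17.9%) and in 5.29% of all RefSeq promoter windows of the same length. The Hox-Pbx motif TGATTNAT, searched on both strands, was present in 73 (9.83%) and in 3.22% of all. The E-box CANNTG, a palindrome bound by helix-loop-helix factors, was present in 77.0% and in 72.3%. TAATTA and TGATTNAT matches may overlap. Receptor windows that surround a start codon need not hold the promoter, so these shares do not compare promoters alone. At the gene start the median was -1.10 in 103 receptors with TAATTA and -0.76 in 476 without it. It was -1.21 in 60 receptors with TGATTNAT and -0.78 in 519 without it. For the E-box it was -0.78 in 443 with and -0.89 in 136 without. G+C content was not held equal in these counts.

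The receptors form 48 clusters when probes less than 1000000 bp apart are joined. Cluster medians over genes with at least 5 probes differed among the 13 clusters of at least 20 receptors. The lowest was the cluster of 102 genes on chromosome 2 (chr2:85376181-90203964, median -1.38), in which 77 of 97 genes with enough probes lay at or below -1 and 0 above 0. It also had 91.3% of 60-base probes. The clusters of 53 genes on chromosome 10 and of 30 genes on chromosome 9 had medians of -1.23 each. The cluster of 98 genes on chromosome 9 had -1.11 and that of 61 genes on chromosome 19 had -0.97. The highest was the cluster of 22 genes on chromosome 11 (chr11:58271342-59431456, median -0.58), where 1 gene lay at or below -1 and 58.2% of the probes had 60 bases. Smaller clusters reached further in both directions. The 8 genes of a chromosome 1 cluster (chr1:94311218-94452823) had a median of 0.13, with 35.8% of 60-base probes. The 15 genes of a chromosome 7 cluster (chr7:86145544-86571396) had -1.46, 19 genes on chromosome 2 (chr2:111032142-111959246) had -1.40, and a pair on chromosome 7 (chr7:84729400-84792583) had -1.88.

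**Figure D5:**
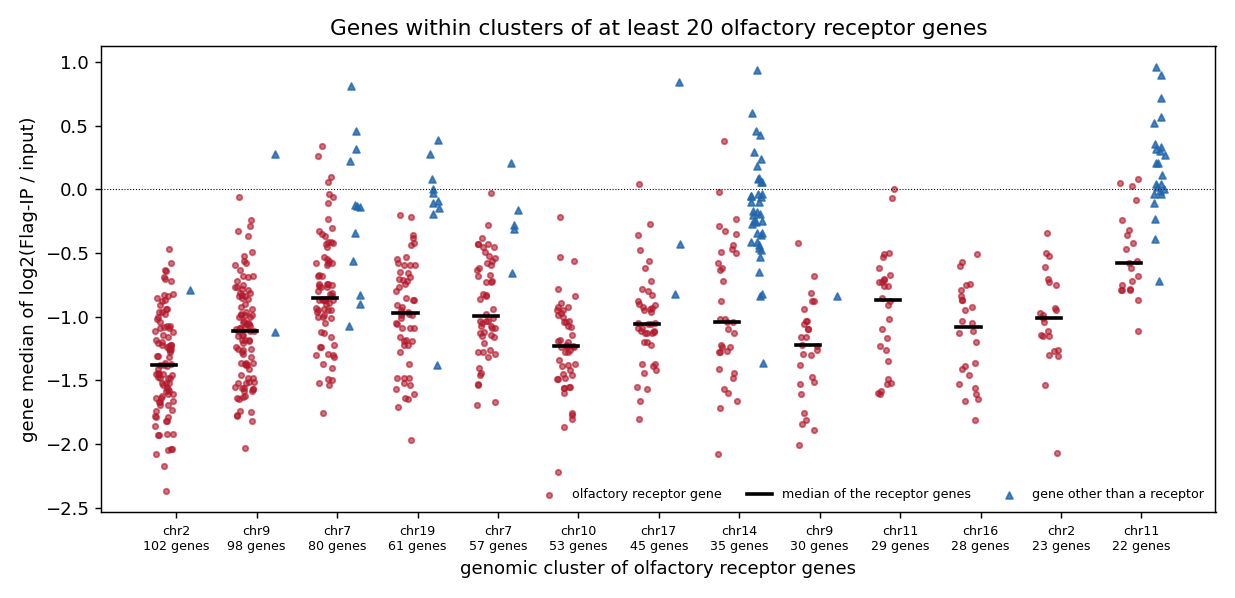
Gene medians of the log2 ratio (vertical axis) in the 13 clusters of at least 20 olfactory receptor genes (horizontal axis), for genes with at least 5 probes. Circles are receptors, black bars their median (-1.38 to -0.58) and triangles other genes inside the cluster.

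Pooled by cluster size, genes of larger clusters had lower medians, although single small clusters were as low. The median was -0.42 for 10 receptors that stand alone, -0.57 for clusters of 2 to 5, -0.72 for 6 to 20, -1.03 for 21 to 50 and -1.09 for larger ones. A gene median above 0 was found for 2 of the 10 lone genes and for 4 of 431 genes in clusters of more than 50. Within clusters of at least 20 genes, the 3 outermost genes on either side had a median of -0.87 (74 genes), the next ones -0.96 (176) and those at least 10 genes from an end -1.14 (384). The quartiles of the outermost genes (-1.10 and -0.59) overlap those of the innermost (-1.47 and -0.87).

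Class I and class II receptors were set side by side by the family number of their MOR name. The 75 class I genes had a median of -0.86 (from -1.76 to 0.34) and the 756 class II genes -1.03 (from -2.37 to 0.56). The 95 class II genes of chromosome 7, the chromosome of the class I cluster, also had a median of -0.86. Their quartiles were wider (-1.24 and -0.53, against -1.03 and -0.56 for class I), and 41 of the 95 lay at or below -1, against 21 of the 75 class I genes. The classes were not tested against each other.

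Genes of other kinds that lie inside the receptor clusters had a higher median than the receptors. The 141 such genes with at least 5 probes had a median of -0.14 (quartiles -0.44 and 0.21, range -2.19 to 0.96), against -0.98 for 613 receptors of the same clusters. Of the 141, 49 lay above 0, beside 52.0% of all genes, and 9 at or below -1, beside 5.25% of all genes. The 9 include BC094916 (-2.19, 5 probes) and Keg1 (-1.38, 13 probes). The median of these other genes was higher than that of the receptors in 18 of 19 clusters. The exception was the cluster of 19 receptors on chromosome 1, with -0.66 for these genes and -0.63 for the receptors. On chromosome 14 the receptors share their interval with 39 such genes, many of them of the RNase A family of secreted ribonucleases, and the medians were -0.18 and -1.04. In the class I cluster the beta-globin genes lie among the receptors. The adult globin genes Hbb-b2 and Hbb-b1 had 0.81 (5 probes) and 0.32 (9 probes), and the embryonic genes Hbb-bh1 and Hbb-y had -0.34 (32 probes) and -0.83 (27 probes), against -0.85 for the receptors around them. The highest of the 141 was Nlrp3, which encodes an inflammasome sensor and lies in a chromosome 11 cluster, with 0.96. Of the probes of these other genes 47.7% had 60 bases, against 80.6% for the receptors. Among 60-base probes the medians were -0.54 and -1.12, and among shorter ones 0.18 and -0.14.

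Genes that act with the receptors in olfactory neurons had a median near 0. Of 22 listed genes of signal transduction, receptor transport and receptor gene control, 21 were found, with a median of 0.03 and a range from -0.63 to 0.66. Of the 21, 13 lay above 0, beside 52.0% of all genes, and 0 at or below -1, beside 5.25%. A 3-probe window at or above 1 was found in 12, beside 41.7% of all genes. In the transduction chain, the G protein subunit gene Gnal had -0.05, the adenylyl cyclase gene Adcy3 -0.14 and the channel subunit gene Cnga2 -0.24. The receptor transport genes Rtp1 and Rtp2 had -0.54 and -0.63, the lowest of the list. Among transcription factors that act on receptor genes, Lhx2 had 0.30, Ldb1, which encodes its partner, 0.31, and Ebf3 0.66 with the highest window of the list, 1.94. The trace amine receptors, most of which serve olfaction, all lay below 0, with a median of -0.66 over 15 genes and a range from -1.59 to -0.42. The 3 formyl peptide receptor genes measured had medians of -1.06, -0.67 and -0.37.

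Neighbouring probes of receptor genes carried related values. The ratio of a probe and of the next one had an r of 0.56 over 9428 pairs on array 1 and 0.50 over 8989 pairs on array 2. For other probes the values were 0.58 and 0.57. Probes of 1 gene and genes of 1 cluster are therefore not independent of each other, and the counts above describe 2 arrays.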

How the data were processed

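Flag-IP and input DNA were hybridised to 2 Agilent promoter arrays, 1 sample for each region. The intensities deposited by the authors were made with Agilent Feature Extraction 10.1.1.1, which took off background and a spatial trend, per the file headers. The deposited log10 ratio column and value table, and the deposited mean and background intensities, served as alternatives. The sources used here do not give the genome build of the probes. Log2 of Cy5 over Cy3 was centred on each array's median (before this 0.06 and 0.07), without loess or quantile steps. Control spots and 19 and 38 outlier-marked spots were left out, and no spot was saturated.

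Windows are medians over 3 neighbouring probes with starts at most 1000 bp apart. Genes were named as in the files, with RefSeq (GRCm38.p6) for names, lengths and promoter sequences. Named genes are the 8 highest and 8 lowest gene medians (at least 5 probes) and the 5 highest and 5 lowest windows. Clusters with at least 20 receptors and the gene lists were described too. The members and lists were chosen with earlier results of these data known. Python 3.11.15, pandas 2.3.3, R 4.3.3 and limma 3.58.1 (normexp, offset 50) were used. Scripts were tested on simulated data. The expression arrays of the series were not used here.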

Additional observations from a re-analysis of the deposited data

How the results depend on the processing

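No paired analysis was possible because each region has 1 array and no test was made. Every median, difference and named gene value that was recomputed kept its sign under all settings. Shares and counts of windows cannot change sign, so only their size can be compared. Results on clusters, receptor classes, base composition, motifs and neighbouring genes were not recomputed. The deposited log10 column and value table gave the same values to the digits printed. The median of array 1 was -0.63 with normexp, -0.87 without centring and -0.49 with the brightness trend subtracted. It was -0.81 with probes well above background in both channels, and -0.81 without the cluster of 102 genes on chromosome 2. That of array 2 was -0.65, -0.90, -0.50 and -0.90 under the first 4 of these. The share at or below -1 was 7.13%, 44.9%, 21.4%, 43.0% and 45.6% under the 5 settings, 69.3% for a limit of -0.5 and 13.0% for -2. Over all probes the share at or below -1 was 1.74% with normexp, 14.1% without centring and 13.8% with probes well above background. With the trend subtracted, 33213 of all 474323 probes lay at or below -1. With the main setting, 13651 of them lay at or below -2. The share at or above 1 was 1.85% with normexp, 1.22% without centring and 1.83% with the trend subtracted, 4.53% for a limit of 0.5 and 0.0402% for 2. Over all probes this share was 12.1% with normexp, 10.2% without centring and 7.84% with the trend subtracted. The median within 500 bp of the start was -0.45, -0.58, -0.39, -0.58 and -0.58 under the 5 settings, and -0.72 within 1000 bp. The difference at like brightness was -0.48 with normexp, -0.62 with the trend subtracted, -0.80 with probes well above background and -0.79 without the cluster. Windows at or above 1 numbered 55 with normexp and 14 over 5 probes, and the shares over all genes were not computed there. The inside minus upstream difference, whose alternatives were added after seeing the data, was 0.63 with normexp, 0.20 with the trend subtracted and 0.68 with probes well above background. Of 26 named gene values, recomputed likewise, 20 moved by more than the probe error with normexp, 18 with the trend subtracted and 9 with probes well above background, where dim probes limit the size of low ratios. The cause was not tested.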
